A study of Mus musculus with 6 samples.

Results

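ATP-binding cassette (ABC) transporter genes were examined in RNA from Hepa1-6 tumors of mice with and without sorafenib (Sora). Members were the rows of the expression tables whose symbol is Abc, a letter from a to g, a number, and at most 1 further letter, which gave 49 of the 26167 genes listed. There were 16 genes of subfamily A, 9 of subfamily B, 10 of subfamily C, 4 of subfamily D, 1 of subfamily E, 3 of subfamily F, and 6 of subfamily G. Hepa1-6, written Hep1-6 in the sample labels, is a mouse hepatoma cell line, and Sora is an inhibitor of several kinases used against liver cancer. Tumors grew from cells injected subcutaneously into female C57BL/6J mice, which were 6 to 8 weeks old when purchased. The Sora-treated mice received 10 mg/kg intraperitoneally on day 9 and then on days 11, 13, and 15, and the sources do not say what the control mice received. One library per tumor was sequenced from 3 control tumors, numbered 1, 3, and 4 in the labels, and 3 Sora-treated tumors, numbered 2, 3, and 4.

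ABC transporters use the energy of ATP to move lipids, bile salts, conjugated metabolites, peptides, and drugs across membranes. Subfamilies A and G mostly handle lipids, subfamily B holds P-glycoprotein, the bile salt pump, and several mitochondrial proteins, and subfamily C holds the multidrug resistance proteins and the regulatory subunits of potassium channels. Most of subfamily D brings fatty acids into peroxisomes, and subfamilies E and F lack membrane domains and act in protein synthesis. In hepatocytes, ABC transporters of the canalicular membrane form bile, and in tumors some members are known for exporting drugs.

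Counts were given for 5 of the 6 tumors, and those of Sora-treated tumor 4 were recovered from its FPKM, the reads of a gene scaled to its length and to the depth of the library. Each library held 31073830 to 36205814 counted reads. The labeled tissue was checked against hepatoma markers, and Alb was at 1994 to 3510.5 CPM, Afp at 655 to 1000.5, and Krt18 at 760.1 to 1230.0. Other genes of the list ranged widely. Trf was at 1415 to 1817 CPM, Krt8 at 546 to 899 CPM, and Apob at 82.5 to 172 CPM, while Ttr was at 1.85 to 11.5 CPM, Apoa2 at 0.905 to 1.60 CPM, and Serpina1a at 0.0274 to 0.272 CPM. Levels below are CPM, reads of a gene relative to the TMM-scaled depth of its tumor, when tumors are compared, and FPKM when genes are compared. The labels do not say whether each tumor came from its own mouse, so p-values measure only the spread between these tumors, which may be technical. The samples are bulk tissue, so fewer cells of a type and less RNA per cell cannot be told apart.

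Promoter sequences are shown first for 2 clusters of neighboring members. In the first, only Abca5 (higher) passed the threshold used below, and its neighbors had lower means that did not pass it. The second holds the pair for P-glycoprotein. RefSeq windows of GRCm38.p6 matched 37 of the 49 members, and each sequence below holds the 250 bases before an annotated transcript start, on the strand of the gene. That start can lie inside the annotated span of the gene. The Abca8b window lies within the span of its gene, and those of Abca9 and Abca5 overlap the spans of theirs. Capitals mark matches, on either strand, to the motifs TATAAA (the TATA box) and CCAAT, to a GC box (letters GGGCGG), an E-box (letters CACGTG), or a receptor element (letters AGGTCA, which many nuclear receptors bind), and no motif contains another. The first cluster lies on chromosome 11, where Abca8b, Abca8a, Abca9, Abca6, and Abca5 follow each other within 109932206 to 110337723, and the windows are those of Abca8b (chr11:109995846-109996095, minus strand), Abca9 (chr11:110168154-110168403, minus strand), and Abca5 (chr11:110337717-110337966, minus strand).
Abca8b: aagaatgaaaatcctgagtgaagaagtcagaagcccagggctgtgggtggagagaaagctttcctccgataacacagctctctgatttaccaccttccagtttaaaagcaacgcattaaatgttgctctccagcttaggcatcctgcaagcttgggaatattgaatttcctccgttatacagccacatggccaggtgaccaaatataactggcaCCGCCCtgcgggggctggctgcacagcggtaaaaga
Abca9: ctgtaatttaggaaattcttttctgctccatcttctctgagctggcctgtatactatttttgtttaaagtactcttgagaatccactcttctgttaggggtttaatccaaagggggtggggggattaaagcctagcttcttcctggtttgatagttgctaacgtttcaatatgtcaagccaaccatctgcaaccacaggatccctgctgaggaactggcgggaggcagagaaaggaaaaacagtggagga
Abca5: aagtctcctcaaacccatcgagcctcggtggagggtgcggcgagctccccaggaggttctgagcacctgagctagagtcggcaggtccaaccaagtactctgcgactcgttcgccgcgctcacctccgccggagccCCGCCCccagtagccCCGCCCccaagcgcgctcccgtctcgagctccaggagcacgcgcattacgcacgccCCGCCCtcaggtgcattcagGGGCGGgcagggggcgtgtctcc
The Abca5 window held 25 CpG sites and 4 GC boxes at 69.2% GC. The Abca8b window held 6 CpG sites and 1 GC box at 48.8% GC, and the Abca9 window held 2 CpG sites and none of the motifs at 44.4% GC. Over all 32851 windows of the same length, the median was 6 CpG sites (interquartile range 2 to 16) and 52.4% GC, so the Abca5 window was above the upper quartile in CpG sites and the Abca9 window was at the lower quartile.

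The second cluster is on chromosome 5, where Abcb1a and Abcb1b, the mouse genes for P-glycoprotein, lie beside Abcb4. The windows are those of Abcb1a (chr5:8566841-8567090, plus strand) and Abcb1b (chr5:8797897-8798146, plus strand).
Abcb1a: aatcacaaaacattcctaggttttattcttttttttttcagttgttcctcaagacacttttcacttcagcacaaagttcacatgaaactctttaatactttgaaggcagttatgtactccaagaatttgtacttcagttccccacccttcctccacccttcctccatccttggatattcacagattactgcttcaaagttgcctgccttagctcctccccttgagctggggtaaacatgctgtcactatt
Abcb1b: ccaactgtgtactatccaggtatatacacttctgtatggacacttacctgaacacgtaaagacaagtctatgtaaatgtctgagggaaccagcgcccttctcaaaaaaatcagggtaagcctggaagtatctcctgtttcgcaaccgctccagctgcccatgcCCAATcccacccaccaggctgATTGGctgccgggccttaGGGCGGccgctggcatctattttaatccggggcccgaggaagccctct
The Abcb1a window held 0 CpG sites and none of the motifs at 40.4% GC, whereas the Abcb1b window held 9 CpG sites, 2 CCAAT matches, and 1 GC box at 52.8% GC. The share of all windows with a match was 12.4% for the TATA box, 33.8% for the CCAAT box, 32.7% for the GC box, 6.02% for the E-box, and 14.0% for the receptor element. Among the 44 windows of members, the shares were 11.4%, 29.5%, 45.5%, 11.4%, and 15.9%. A match describes letters in the sequence and not binding of a factor.

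The members spanned a wide range of levels. Of the 49 genes, 32 had a mean of at least 1 FPKM over the 6 tumors, and 10 had a mean of at least 10 FPKM. The highest were Abce1 (39.1 FPKM), which recycles ribosomes, and Abcf1 (38.5 FPKM), which takes part in the start of translation. The highest membrane transporters were Abcc2 (22.4 FPKM), the canalicular exporter of bilirubin conjugates, Abca5 (18.9 FPKM), a lysosomal and endosomal protein, and Abca1 (15.9 FPKM), which passes cholesterol and phospholipid to apolipoprotein A-I. Abcf2 (16.4 FPKM), Abcc5 (15.8 FPKM), Abca3 (13.1 FPKM), Abcc3 (12.6 FPKM), and Abcf3 (10.996 FPKM) completed the 10. The 5 highest genes held 40.0% to 44.4% of the summed FPKM of the family.

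The makeup of the family was much alike in the 6 tumors. The summed level was 336, 312, and 347 FPKM in control tumors 1, 3, and 4 and 316, 327, and 307 FPKM in Sora-treated tumors 2, 3, and 4, so the groups overlapped. Subfamily A held 21.9% to 24.9% of it, subfamily C 19.4% to 22.4%, and subfamily F 19.2% to 21.6%. The single gene of subfamily E held 10.4% to 12.9%, subfamily B 9.07% to 10.2%, subfamily D 6.06% to 7.42%, and subfamily G 5.74% to 7.92%.

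**Figure D1:**
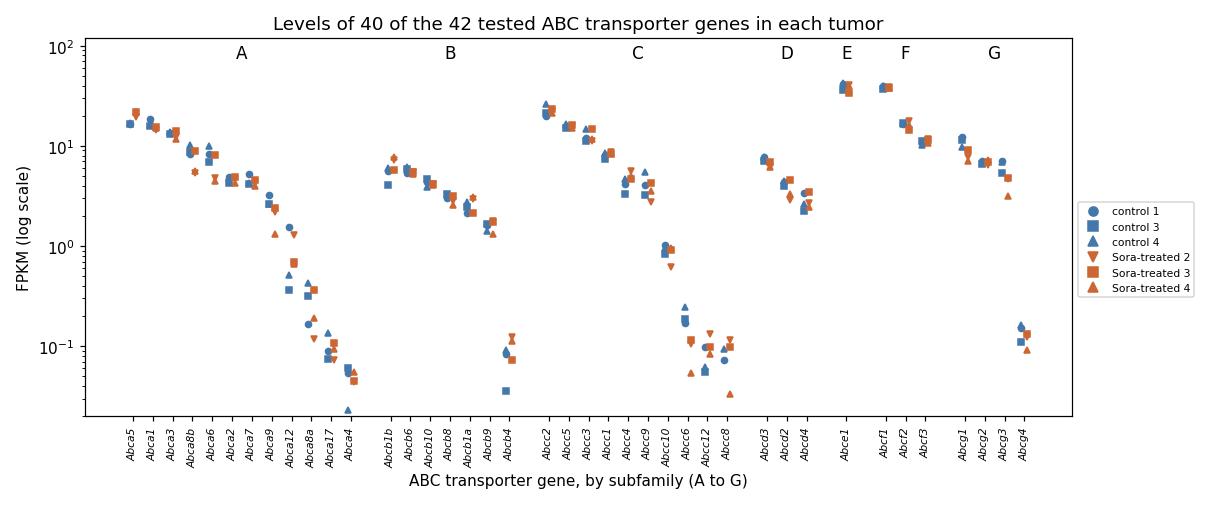
FPKM (log scale) of 40 of the 42 tested ABC transporter genes in each of the 6 tumors, ordered within subfamilies A to G by mean level; blue symbols are control tumors and orange symbols are Sora-treated tumors, and the shape gives the tumor number. The genes range from below 0.1 FPKM to about the 39.1 FPKM of Abce1, and for most genes the symbols of both groups lie together.

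Whether Sora changed the expression of the family was tested with edgeR's quasi-likelihood test, adjusted by Benjamini-Hochberg over the 16513 genes that reached 10 counts in 3 or more tumors. Of the 49 members, 42 passed this filter and 7 did not (Abca13, Abca14, Abca15, Abca16, Abcb11, Abcg5, and Abcg8). At an adjusted p under 0.05, 3 genes or 7.14% of those tested passed (1 higher and 2 lower), among them Abca5, which was up-regulated, and Abcg1, which was down-regulated, against 3.29% of all genes (1.94% higher and 1.34% lower). With an unadjusted p under 0.05 there were 11 members, 3 higher and 8 lower in Sora-treated tumors, which is 26.2% against 17.2% of all genes. The groups did not overlap in CPM in 9 of the 42 genes, 21.4% against 22.2% of all genes. The median log2 fold change was -0.06 (15 genes higher and 27 lower), against -0.00037 over all genes.

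Most differences were small. Abcc6 alone differed by more than 2-fold between groups, at about 1 CPM, and among members averaging 1 CPM or more the largest difference after it was that of Abcg3 with a log2 fold change of -0.60. The number of calls moved with the method and with single tumors. DESeq2, run as an alternative, called 6 members (among them Abca5, higher, and Abca8b, Abca9, Abcg1, and Abcg3, lower). It called 1194 of the 15490 genes it tested (7.71%). Its own filter differs from that of edgeR, so the 42 members tested by edgeR are not its number tested. Without Sora-treated tumor 4, whose counts were recovered, edgeR called 0 members and 0.0306% of all genes, with 6 members at an unadjusted p under 0.05.

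**Figure D2:**
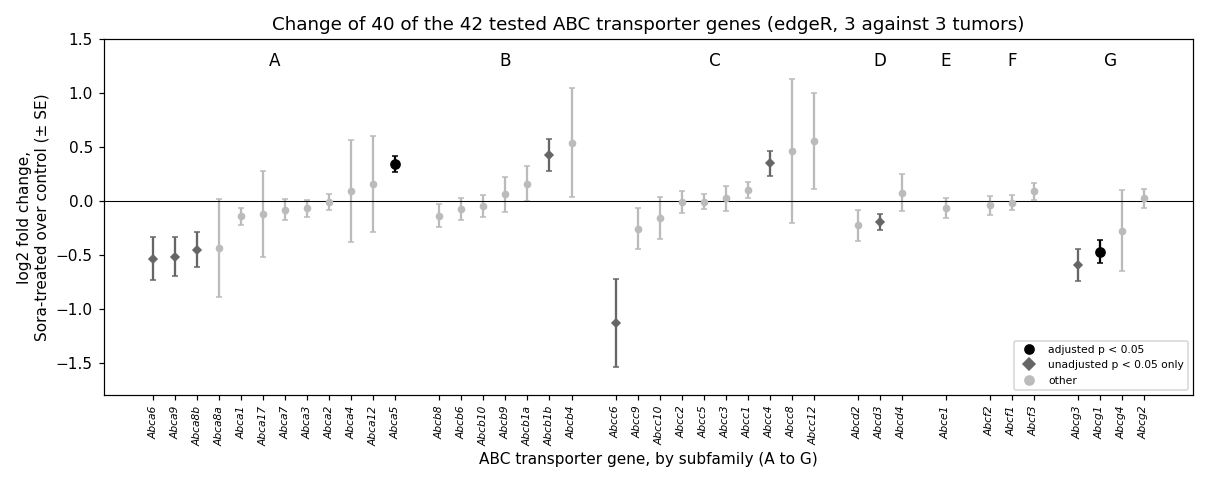
Log2 fold change of Sora-treated over control tumors (edgeR, 3 against 3 tumors) for 40 of the 42 tested ABC transporter genes, by subfamily and ordered by value; bars are standard errors derived from the test statistic, black circles have an adjusted p under 0.05, and dark diamonds have only an unadjusted p under 0.05. Abca5 lies above 0 at 0.34, Abcg1 lies below it at -0.47, and genes with few reads have wide bars.

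Among the lipid transporters of subfamily A, Abca5 (chromosome 11, 110269369 to 110337723) stood at 133, 140.6, and 140.4 CPM in control tumors 1, 3, and 4 and at 161, 178, and 186 CPM in Sora-treated tumors 2, 3, and 4. All Sora-treated tumors lay above all control tumors. The mean rose from 138 ± 4.23 to 175 ± 12.8 CPM (SD, n = 3), with at least 4275 reads in each tumor. The log2 fold change was 0.34 (SE 0.077, adjusted p = 0.0398, edgeR). When each tumor was left out in turn, the adjusted p of edgeR ranged from 0.048 to 0.18, and only the fit without Sora-treated tumor 3 kept it under 0.05.

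Abca6, Abca8b, and Abca9, the neighbors of Abca5 in the chromosome 11 cluster, had lower means in Sora-treated tumors but did not pass the adjusted threshold. Their proteins are thought to take part in lipid handling, and ABCA8 has been linked to HDL cholesterol. Abca6 was at 67.8, 58.9, and 83.0 CPM in the control tumors and at 39.6, 66.9, and 38.2 CPM in Sora-treated tumors 2, 3, and 4. Abca8b was at 64.9, 70.7, and 81.6 CPM and at 42.8, 69.7, and 46.0 CPM. In both genes, Sora-treated tumors 2 and 4 lay below every control tumor and Sora-treated tumor 3 lay among them. The log2 fold changes were -0.53 (SE 0.20, adjusted p = 0.182, edgeR) for Abca6 and -0.45 (SE 0.16, adjusted p = 0.17, edgeR) for Abca8b. When each tumor was left out in turn, the log2 fold change of Abca6 ranged from -0.85 to -0.39 (adjusted p = 0.00594 to 0.515, edgeR) and that of Abca8b from -0.71 to -0.32 (adjusted p = 0.00484 to 0.488, edgeR). In both genes the adjusted p was under 0.05 only in the fit without Sora-treated tumor 3.

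Abca9 was at 23.5, 19.9, and 19.1 CPM in the control tumors and at 16.1, 17.6, and 10.1 CPM in the Sora-treated tumors. The groups did not overlap, and the log2 fold change was -0.52 (SE 0.18, adjusted p = 0.16, edgeR). It ranged from -0.68 without Sora-treated tumor 3 to -0.31 without Sora-treated tumor 4, with adjusted p from 0.0635 to 0.377 (edgeR) over the 6 fits that each left out a tumor. The fifth gene of the cluster, Abca8a, was near 1 to 3 CPM in every tumor (1.06, 2.12, and 2.80 against 0.767, 2.35, and 1.30) with a log2 fold change of -0.43 (SE 0.45). Reads of close relatives can be divided between them by the counting, but Abca8a and Abca8b shared few stretches of 50 bases (1.64% of those of Abca8a). Their summed CPM was 65.9, 72.8, and 84.4 against 43.6, 72.1, and 47.3, a log2 ratio of -0.45 (p = 0.2, exact two-sided permutation test, for which 0.1 is the smallest p that 3 against 3 tumors can give). The difference between Abca5 and its neighbors was not tested.

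The rest of subfamily A showed no called change. Abca1 was at 189, 168, and 166 CPM in the control tumors and at 150.1, 160.2, and 163 CPM in the Sora-treated tumors, without overlap but with a log2 fold change of only -0.14 (SE 0.078, adjusted p = 0.392, edgeR). Abca7, which is expressed in phagocytes and moves phospholipid, had a log2 fold change of -0.08 (SE 0.095). The means of Abca2 and Abca3, a lysosomal lipid transporter and the transporter of lung surfactant lipid, differed by log2 fold changes of -0.01 and -0.07. Abca4, the retinal transporter, and Abca17 stayed at about 1 CPM or less in every tumor, and the ends of Abca3 and Abca17 overlap on chromosome 17, so reads there cannot be assigned where strand is not used. Abca13, Abca14, Abca15, and Abca16 were at 0.399 CPM or less in every tumor.

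Abca12, which loads lipid into the lamellar granules of keratinocytes, varied within groups more than between them. It was at 12.5, 3.13, and 4.28 CPM in the control tumors and at 10.8, 5.72, and 5.65 CPM in the Sora-treated tumors. The summed CPM of 9 keratinocyte and skin markers was 1129, 333, and 417 in the same control tumors and 1005, 732, and 707 in the Sora-treated tumors. The 2 tumors with the highest Abca12 were thus those with the highest skin marker level, and the part of skin in the value was not tested.

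**Figure D3:**
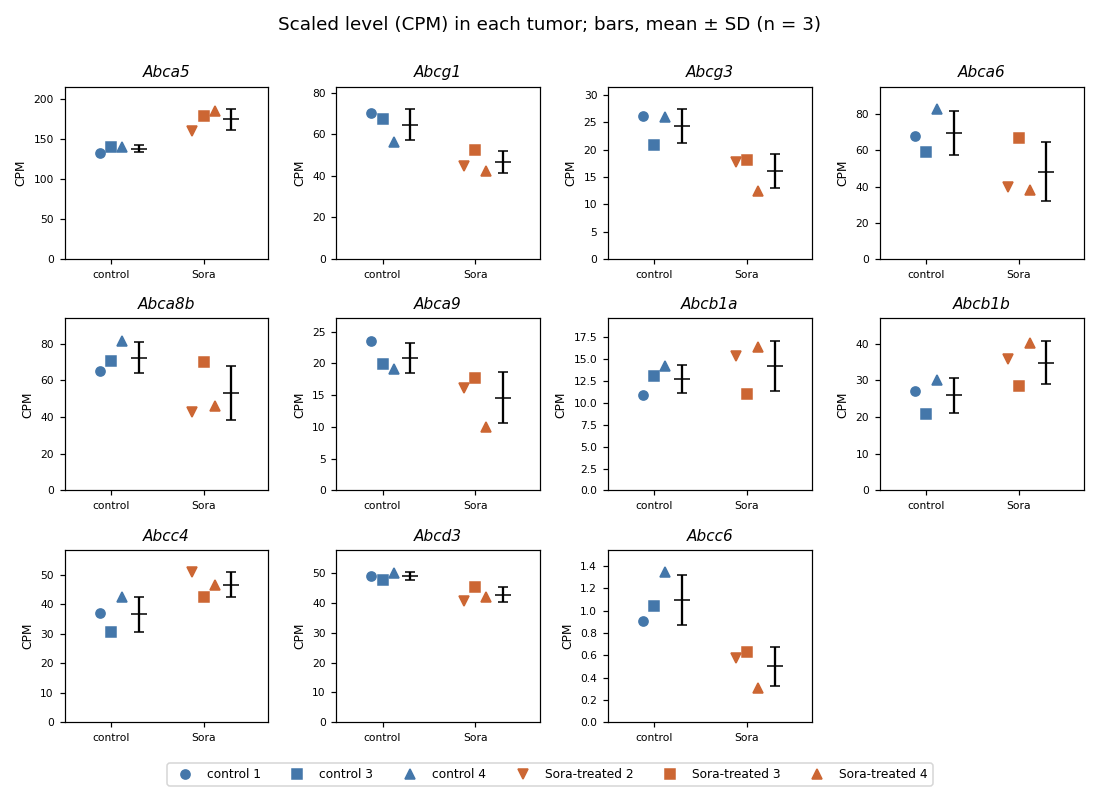
CPM (y axis, from 0) in each tumor for 10 of the 11 ABC transporter genes with an unadjusted p under 0.05 and for Abcb1a; blue symbols are control tumors, orange symbols are Sora-treated tumors, the shape gives the tumor number, and black bars are the mean ± SD (n = 3). Abca5 and Abcg1 separate the groups, and in Abca6 and Abca8b Sora-treated tumor 3 sits at the level of the control tumors.

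In subfamily G, Abcg1, which exports cholesterol from macrophages and other cells to HDL, was down-regulated. Abcg1 (chromosome 17, 31057694 to 31117984) was at 70.3, 67.5, and 56.2 CPM in control tumors 1, 3, and 4 and at 44.9, 52.5, and 42.5 CPM in Sora-treated tumors 2, 3, and 4. The groups did not overlap, and the mean fell from 64.7 ± 7.48 to 46.6 ± 5.18 CPM (SD, n = 3), with at least 1406 reads in each tumor. The log2 fold change was -0.47 (SE 0.11, adjusted p = 0.0392, edgeR). With each tumor left out in turn, the adjusted p of edgeR ranged from 0.0135 to 0.188 and stayed under 0.05 without control tumor 4 or Sora-treated tumor 3.

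Abcg3, a rodent relative of Abcg2 with an altered ATP-binding domain, was at 26.2, 20.8, and 26.0 CPM in the control tumors and at 17.7, 18.0, and 12.5 CPM in the Sora-treated tumors. The groups did not overlap. Its log2 fold change was -0.60 (SE 0.15, adjusted p = 0.0531, edgeR), just outside the threshold, and DESeq2 gave an adjusted p of 0.00339. Abcg2, the breast cancer resistance protein, was level, at 25.2, 24.8, and 24.9 CPM against 23.5, 25.02, and 27.7 CPM (log2 fold change 0.02, SE 0.090). The summed CPM of subfamily G was 123, 114, and 108 in the control tumors and 86.8, 96.2, and 83.2 in the Sora-treated tumors, without overlap.

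The 4 genes listed for cholesterol and phospholipid efflux (Abca1, Abca7, Abcg1, and Abcg4) all had lower means in Sora-treated tumors, with a median log2 fold change of -0.21, but Abcg1 was the 1 gene that passed the test. Abcg4, known mainly from neurons, was under 1 CPM in every tumor. The summed CPM of the 4 genes was 294, 265, and 252 in the control tumors and 224, 244, and 234 in the Sora-treated tumors. Macrophage markers were also lower on average, with 10 of 12 lower, 7 of them at an unadjusted p under 0.05, and 1 called (Mertk, log2 fold change -0.45). The 2 others, Cd14 (log2 fold change 0.45) and Itgam (0.24), were higher, both at an unadjusted p under 0.05. Csf1r, the receptor that macrophages need to survive, had a log2 fold change of -0.38 (adjusted p = 0.0672, edgeR). The summed CPM of the 12 markers was 3042, 3376, and 3015 in the control tumors and 2505, 3038, and 2688 in the Sora-treated tumors, with overlap. Without Lyz2, the highest of them, the sums of the other 11 were 2088, 2276, and 1919 against 1712, 1893, and 1658, without overlap. The part of macrophages in the level of Abcg1 was not tested.

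Genes that act with the efflux transporters were read from lists of LXR target genes, nuclear receptors, and cholesterol and HDL genes. LXR is the oxysterol receptor that turns on Abca1 and Abcg1 in many cells. Lpl, the lipoprotein lipase that is also an LXR target, was down-regulated from 379, 364, and 326 CPM to 225, 284.5, and 240.4 CPM (log2 fold change -0.51, SE 0.099, adjusted p = 0.0233, edgeR). It was the 1 called gene among 12 LXR targets, of which 5 were higher and 7 lower. Nr1h3, which encodes LXR alpha, had a log2 fold change of -0.41 (adjusted p = 0.101, edgeR), and Nr1h2, which encodes LXR beta, had 0.06. These were named after their values were seen.

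Apoa1, which encodes the main protein of HDL and the acceptor for Abca1, was up-regulated from 21.2, 20.8, and 24.4 CPM to 42.5, 27.1, and 66.2 CPM (log2 fold change 1.03, SE 0.25, adjusted p = 0.047, edgeR). It was the 1 gene called among 11 genes of cholesterol handling and HDL, of which 7 were higher and 4 lower. Hnf4a, a regulator of hepatocyte genes, was up-regulated from 72.6, 89.6, and 78.6 CPM to 149.5, 112, and 156 CPM (log2 fold change 0.80, SE 0.12, adjusted p = 0.013, edgeR), the 1 called gene of 11 nuclear receptors and regulators tested. Both genes separated the groups, and Sora-treated tumor 3 was the lowest of the treated tumors in both. Hepatocyte genes did not move one way, since Alb and Ttr, which encode the plasma proteins albumin and transthyretin, were down-regulated, with log2 fold changes of -0.55 (SE 0.12, adjusted p = 0.041, edgeR) and -2.15 (SE 0.21, adjusted p = 0.00555, edgeR).

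None of the genes of drug efflux passed the adjusted threshold. The list held Abcb1a, Abcb1b, Abcc1, Abcc2, Abcc3, Abcc4, Abcc5, Abcc10, and Abcg2, with 6 higher and 3 lower and a median log2 fold change of 0.02. All 9 genes were tested, and 2 had an unadjusted p under 0.05, Abcb1b and Abcc4. Their summed CPM was 506, 504, and 586 in the control tumors and 548, 560.1, and 559 in the Sora-treated tumors, with overlap.

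For P-glycoprotein, Abcb1b was the higher of the pair, at 6.09 FPKM against 2.59 FPKM for Abcb1a. Abcb1b was at 27.0, 20.8, and 30.1 CPM in the control tumors and at 35.9, 28.4, and 40.1 CPM in the Sora-treated tumors, with Sora-treated tumor 3 between the control values. Its log2 fold change was 0.42 (SE 0.15, adjusted p = 0.166, edgeR). With each tumor left out in turn it ranged from 0.29 to 0.55 and the adjusted p of edgeR from 0.0468 to 0.501. Among these fits, only that without Sora-treated tumor 3 had the adjusted p under 0.05. Among all 18 alternatives, 2 had it under 0.05. Abcb1a was at 10.9, 13.02, and 14.1 CPM against 15.3, 10.9, and 16.3 CPM, a log2 fold change of 0.16 (SE 0.16, adjusted p = 0.68, edgeR) that ranged from 0.046 without Sora-treated tumor 4 to 0.31 without Sora-treated tumor 3 (adjusted p = 0.961 and 0.215). Of the 50-base stretches of Abcb1a, 16.3% occurred in Abcb1b, and 11.1% of those of Abcb1b occurred in Abcb1a. The division of reads between them is therefore uncertain. The summed CPM does not depend on that division, though it would lack any reads left uncounted for matching both genes. The sum was 37.9, 33.8, and 44.2 against 51.2, 39.3, and 56.5, a log2 ratio of 0.34 (p = 0.2, exact two-sided permutation test).

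Abcc4, an exporter of cyclic nucleotides, prostaglandins, and drugs, was at 36.9, 30.5, and 42.4 CPM in the control tumors and at 50.8, 42.5, and 46.6 CPM in the Sora-treated tumors. The highest control tumor and the lowest Sora-treated tumor were nearly equal. The log2 fold change was 0.35 (SE 0.12, adjusted p = 0.146, edgeR). Abcc1, the transporter of glutathione conjugates and leukotriene C4, had a log2 fold change of 0.10 (SE 0.071), Abcc5, an exporter of cyclic nucleotides, had -0.01 (SE 0.069), and Abcc10 had -0.16 (SE 0.19).

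In the canalicular group, Abcc2 was the only abundant gene. Abcc2 was at 110.2, 122, and 148 CPM in the control tumors and at 124, 132, and 123 CPM in the Sora-treated tumors, a log2 fold change of -0.01 (SE 0.10). Abcb11, the bile salt pump, had 0 to 5 reads per tumor, and Abcb4, the phosphatidylcholine translocator, had 5 to 16. Abcg8 had 4 reads in control tumor 4 and 0 in the others, and its sterol export partner Abcg5 had 0 reads in every tumor. That allows a level of up to 0.0829 to 0.0965 CPM per tumor (3 counts, counting error only, on depth without TMM scaling). With so few reads, a difference between groups in Abcb11, Abcg5, or Abcg8 was not detectable at this depth.

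The hepatocyte carriers that take bile acids up were as scarce. Slc10a1, the sodium-dependent bile acid importer, had reads in Sora-treated tumor 3 alone (0.149 CPM), and Cyp7a1, the rate-limiting enzyme of bile acid synthesis, was at 0.192 CPM or less in every tumor. Among the carriers of the SLC families, 6 of the 12 present were tested, with 5 higher and 1 lower. The 1 called gene was Slco2a1, the prostaglandin transporter, which rose from 89.9, 79.6, and 85.6 CPM to 131, 119.6, and 139 CPM (log2 fold change 0.61, SE 0.082, adjusted p = 0.0085, edgeR). Of the bile acid synthesis genes, 5 were tested and Amacr, the racemase for branched fatty acids and bile acid intermediates, was called, falling from 56.0, 65.7, and 64.6 CPM to 30.6, 48.7, and 36.0 CPM (log2 fold change -0.69, SE 0.14, adjusted p = 0.0307, edgeR).

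Among other exporters found in hepatocytes, Abcc3, which sends conjugated bile acids to the blood, was at 58.0, 57.1, and 73.0 CPM against 56.2, 73.6, and 61.3 CPM (log2 fold change 0.02, SE 0.12). Abcc6, which supports the release of ATP from liver cells, was at 0.903, 1.04, and 1.34 CPM in the control tumors and at 0.575, 0.625, and 0.302 CPM in the Sora-treated tumors. These levels are 29, 34, and 49 reads against 18, 21, and 10. The groups did not overlap, and the log2 fold change of -1.13 (SE 0.41) had an adjusted p of 0.175 by edgeR.

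The mitochondrial or heme-related genes Abcb6, Abcb8, and Abcb10, which are known for porphyrin, iron, and heme handling, had log2 fold changes of -0.07, -0.14, and -0.05 and were not called. Of the 50-base stretches of Abcb6, 50.01% occurred in the overlapping gene model Gm29253, so its count is uncertain. Of 14 genes of heme and iron-sulfur cluster synthesis, 0 were called by edgeR and 2 had an unadjusted p under 0.05, Alad with a log2 fold change of -0.32 (adjusted p = 0.0517, edgeR) and Slc25a37 with 0.24 (adjusted p = 0.236, edgeR).

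The peroxisomal transporters Abcd2 and Abcd3 had lower means in Sora-treated tumors, with log2 fold changes of -0.23 and -0.20, and neither was called. Abcd3, which carries branched fatty acids and bile acid intermediates, was at 49.3, 47.8, and 50.3 CPM against 40.8, 45.6, and 42.2 CPM. Its groups did not overlap (SE 0.075, adjusted p = 0.20, edgeR). Abcd2 was at 24.2, 23.2, and 25.2 CPM against 16.5, 25.9, and 19.6 CPM, with Sora-treated tumor 3 above all control tumors. Of 11 genes of peroxisomal beta-oxidation, 4 were higher, 7 were lower, and 0 were called by edgeR (1 at an unadjusted p under 0.05, Scp2). The lysosomal transporters Abcd4, for vitamin B12, and Abcb9, for peptides, had log2 fold changes of 0.08 (SE 0.17) and 0.06 (SE 0.16).

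The members without membrane domains included Abce1 and Abcf1, the highest of the family, and none of them was called. Abce1 was at 154, 140.4, and 163 CPM against 155, 128, and 155 CPM (log2 fold change -0.06, SE 0.093), and Abcf1 was at 122.5, 119, and 125 CPM against 122, 118, and 122 CPM (-0.02, SE 0.067). Abcf2 and Abcf3 had log2 fold changes of -0.04 (SE 0.088) and 0.09 (SE 0.080). Of 7 genes of ribosome recycling and eIF2, 0 were called by edgeR and 1 (Gcn1) had an unadjusted p under 0.05. The channel subunits of subfamily C were not called either, with Abcc9, the vascular form, at 32.0, 26.4, and 43.5 CPM against 21.8, 34.3, and 29.1 CPM (log2 fold change -0.26, SE 0.19) and Abcc8, the pancreatic form, at 0.607 CPM or less. Kcnj8, the pore partner of Abcc9, had a log2 fold change of 0.06. Abcc12 was at 0.639 CPM or less in every tumor.

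Tap1 and Tap2, which load peptides for MHC class I and belong to the same superfamily under other symbols, were not called. Tap1 was at 307, 367, and 295 CPM against 239.7, 325, and 329 CPM, and Tap2 was at 94.1, 114, and 83.2 CPM against 81.7, 96.4, and 91.6 CPM. Their log2 fold changes were -0.12 and -0.11. Across all pathway lists, 103 genes were listed, 100 were present, and 85 were tested, of which 3 were up-regulated and 2 down-regulated (5.88%, against 3.29% of all genes).

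Summed levels of marker lists differed between the tumors in several cell types. Fibroblast markers were at 8019, 7766, and 7924 CPM in the control tumors and at 6666, 6909, and 5503 CPM in the Sora-treated tumors, without overlap, with 9 of 10 lower and 0 called by edgeR. The 3 at an unadjusted p under 0.05 were the collagen genes Col1a1, Col1a2, and Col3a1, with log2 fold changes of -0.42, -0.47, and -0.42, and they made up most of the sum. The 7 other fibroblast markers summed to 1868, 2005, and 2070.2 CPM against 1926, 2006, and 2007 CPM, with overlap and nearly equal means. T cell markers were at 277, 251, and 253 CPM against 196, 213, and 199 CPM, also without overlap, with 9 of 9 lower, 7 at an unadjusted p under 0.05, and 2 called (Cd8b1 and Cd6). The ranges of the other lists overlapped between groups when all markers were summed. They were 6353 to 8193 CPM in control and 6729 to 7376 CPM in Sora-treated tumors for hepatoma markers (Apoa1 and Hnf4a called higher and Alb and Ttr lower, and 7 at an unadjusted p under 0.05), 398 to 443 and 349 to 426 CPM for endothelial markers (0 called, 1 at an unadjusted p under 0.05), and 566 to 745 and 541 to 739 CPM for pericyte and smooth muscle markers (0 called, 2 unadjusted).

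Neutrophil markers were higher in 7 of 8 genes tested, with a median log2 fold change of 0.63, 6 at an unadjusted p under 0.05, and 1 called (S100a9, log2 fold change 1.21). Their sum was 299.7 to 370.3 CPM in control and 320.4 to 377 CPM in Sora-treated tumors, but most of it was Mmp9, the 1 gene that was lower (log2 fold change -0.23). Without Mmp9, it was 82.2 to 91.9 CPM in control and 117 to 180 CPM in Sora-treated tumors, without overlap. Mast cell markers were at 149 to 202 and 153 to 219 CPM (1 called, Hdc, higher). Adipocyte markers were at 88.2 to 116 and 101 to 147 CPM and skeletal muscle markers at 178 to 247 and 199.7 to 285 CPM, with 0 called by edgeR in either and 3 and 0 at an unadjusted p under 0.05. Means were higher in Sora-treated tumors for 7 of 7 adipocyte markers tested (median log2 fold change 0.63) and 8 of 9 skeletal muscle markers. The same held for 9 of 9 keratinocyte and skin markers, with 0 called. No marker present was at 0 in all tumors. The 3 collagen genes, the T cell sum, and the macrophage sum without Lyz2 were thus lower in all Sora-treated than in all control tumors. The collagen genes and the macrophage sum without Lyz2 are parts of lists, cut after their values were seen. The full macrophage sum and the sum of the other 7 fibroblast markers overlapped between groups. Members that were lower without overlap included Abcg1, Abcg3, Abca9, Abca1, Abcc6, and Abcd3. Of all genes tested, 22.2% did not overlap, in either direction. The part of these cell types in the levels of the members was not tested.

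**Figure D4:**
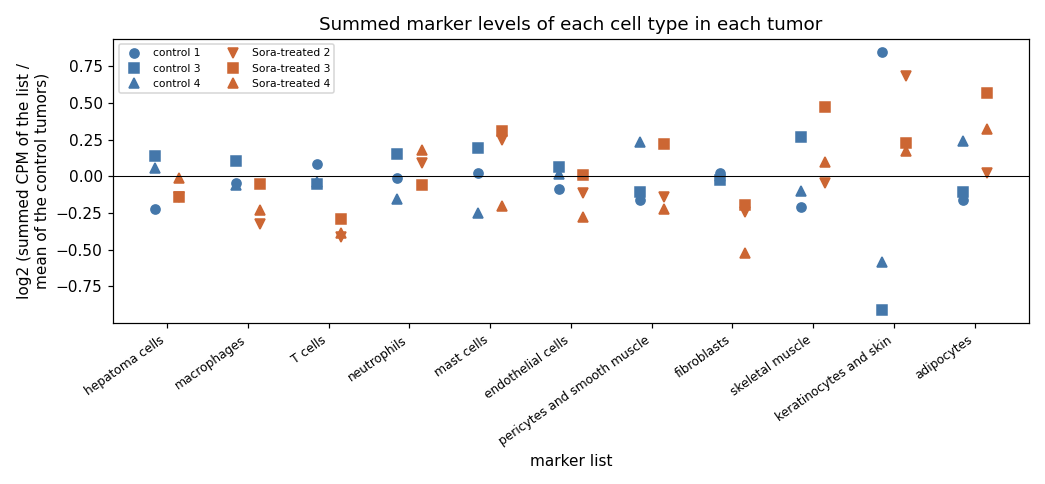
Summed CPM of each marker list in each tumor, as log2 of its ratio to the mean of the control tumors; blue symbols are control tumors, orange symbols are Sora-treated tumors, and the shape gives the tumor number. The T cell sum is lower in all 3 Sora-treated tumors, and so is the fibroblast sum, through its 3 collagen genes, and keratinocyte markers range widely in the control tumors, from 333 to 1129 CPM.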

How the data were processed

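Total RNA of 6 Hepa1-6 tumors (3 control, 3 Sora-treated) had been sequenced, with one library per tumor. The authors deposited a table of counts, whole numbers of reads per gene without normalization, and a table of FPKM, the same counts scaled to gene length and library depth. The paper names GRCm38 and Bowtie2, whereas the submitters' processing notes list GRCm39, fastp, HISAT2, HTSeq, R 3.2.0, and DESeq2; the annotation and the use of strand are not given in the sources used here. Coordinates printed are those of GRCm38.p6 (RefSeq), matched by symbol. The count table holds 5 of the 6 tumors. Whole reads of Sora-treated tumor 4 were recovered from FPKM with gene lengths computed from the other tumors. Of the values obtained, 100% were whole numbers to within 0.001, and 342 genes with 512 reads were left at 0. Each of the other 5 tumors, treated as unknown, returned its total count exactly.

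Total counts were 31073830 to 36205814 reads, and the biological coefficient of variation was 0.132. Genes that reached 10 counts in 3 or more tumors were tested by the quasi-likelihood test of edgeR 4.0.16 (TMM scaling, glmQLFit without the robust option) under R 4.3.3, and Benjamini-Hochberg adjusted p under 0.05 was the threshold. Sums of gene pairs were compared by an exact permutation test. No replicate pair was close enough to be one library. The members and lists were chosen with earlier results of these data known, and no test was made over a list. Named genes were members with an adjusted or unadjusted p under 0.05, the 2 with the highest FPKM in each subfamily, the drug efflux, canalicular, and cholesterol efflux lists, members whose groups do not overlap at a mean of at least 1 CPM, and called pathway genes. Other genes were named after their values were seen. Of the members, 2 are counted but not reported by name or drawn here.

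Alternatives were DESeq2 1.42.0, other scalings and filters, a replicate block, robust=TRUE, limma 3.58.1 on log2(FPKM + 1) or log2(FPKM + 0.1), and leaving out each tumor. DESeq2 on the 5 deposited count columns and sums of each marker list without its highest gene, or of fibroblast markers without collagens, were added after seeing the data. Scripts were tested on simulated data. Shared 50-base stretches were counted in GENCODE M21 transcripts.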

Additional observations from a re-analysis of the deposited data

How the results depend on the processing

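The number of members called was 3 by edgeR (7.14% of those tested, against 3.29% of all genes), and 6 with DESeq2 (7.71% of all genes were called). It was 8 with no filter on low counts, 1 with DESeq2 on the 5 deposited count columns, and 0 to 7 with each tumor left out. With the replicate block or with limma on FPKM values (pseudocount 1 or 0.1) it was 0, and 9, 10, and 8 members had an unadjusted p under 0.05. The number of genes tested differed between settings, so these counts of members are not read as above or below those of all genes. For all genes, 543 calls became 1194 with DESeq2, 1147 with no filter, 125 with the replicate block, 198 with log2(FPKM + 1), 38 with log2(FPKM + 0.1), 0 with log2(FPKM + 1) of all genes by limma (6 members at an unadjusted p under 0.05, and 0 called), and 5 to 1145 with each tumor left out. The pathway genes called went from 5 to 10 with DESeq2 and to 0 to 10 with each tumor left out. Scaling by DESeq2 size factors or the upper quartile, a filter in every tumor, robust=TRUE, and total counts (2 members) kept the member count within 1.5 times. The median log2 fold change of the members moved by less than its spread in each alternative run.

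The labels number the tumors and share numbers 3 and 4. Deviations of same-numbered tumors from their group means correlated at -0.033 and -0.074, and those of differently numbered tumors at -0.157 to 0.259. So few pairs cannot show whether same-numbered tumors shared anything beyond the number. With the replicate block, Abca7 turned to 0.017, Abcb1a to -0.019, and Abcc10 to 0.069. With DESeq2 on the 5 columns, Abcc2 turned to 0.0074, Abcc5 to 0.0064, and Abcg2 to -0.046. With each tumor left out, log2 fold changes ran from -0.13 to 0.0058 (Abca7), -0.10 to 0.12 (Abcc2), -0.097 to 0.15 (Abcc3), -0.029 to 0.023 (Abcc5), -0.29 to 0.020 (Abcc10), -0.12 to 0.022 (Abce1), -0.11 to 0.036 (Abcf2), and -0.043 to 0.076 (Abcg2). None of these genes was called in any fit run. Abca5 and Abcg1 kept their direction in all 18 alternatives, at 0.29 to 0.40 and -0.57 to -0.38. Counting error limits members with few reads, and the causes of these shifts were not tested.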

Other observations

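Slco1b2, a liver carrier for organic anions that failed the filter on low counts, had reads in every control tumor (0.312, 0.215, and 0.247 CPM) and 0 in every Sora-treated tumor. There, 0 reads allow up to 0.0965, 0.0902, and 0.0879 CPM (3 counts per tumor, on depth without TMM scaling). It was not tested, and it was named after its values were seen. Genes of MHC class I peptide loading, which act on the peptides that Tap1 and Tap2 supply, had a median log2 fold change of -0.16, with 5 of 6 lower, 0 called by edgeR, and 2 at an unadjusted p under 0.05. Control tumors 1, 3, and 4 had summed CPM of 5335, 5635, and 5696, and the sums of 4659, 5172, and 5186 in Sora-treated tumors 2, 3, and 4 all lay below them. Slc22a3, a carrier of organic cations, had a log2 fold change of 1.60 (SE 0.52, adjusted p = 0.126, edgeR) at under 0.5 CPM in every tumor.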
